A study of Mus musculus with 6 samples.

Results

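*Nxf3* and *Zc3h6* are a pair of genes whose counts fell strongly in ASCs without *Bdh2*, and they are described here together with 7 relatives. *Nxf3* and *Zc3h6* were chosen for that fall, so their own values are given as a description with no test. The relatives were chosen by family and partnership: *Nxf1*, *Nxf2* and *Nxf7* are the other nuclear RNA export factor genes of the mouse, *Nxt1* and *Nxt2* encode the small cofactors that bind these factors, and *Zc3h4* and *Zc3h8* are CCCH zinc finger relatives of *Zc3h6*. The 9 genes are 9 of 54715 in the deposited table. RNA of mouse ASCs was sequenced in 3 libraries of wild type cells (WT ASCs) and 3 libraries of *Bdh2*-/- cells (*Bdh2*-knockout ASCs), and these are the only groups. Values of single libraries are listed in the order of replicates 1, 2 and 3 throughout. ASCs, advanced embryonic stem cells, are pluripotent cells grown in a serum-free medium with CHIR99021, leukemia inhibitory factor and the growth factors activin A and BMP4. Both groups came from one cross, of 129/sv females with GOF/GFP males, and both carry its reporter, in which the *Oct4* promoter and distal enhancer drive GFP. The *Bdh2* deletion was made with CRISPR/Cas9 in single-cell colonies that were picked and expanded, so an effect of the clone and an effect of the deletion cannot be told apart. No source used here says that the replicates were separate cultures, and p-values then measure only the spread between these samples, which may be technical.

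NXF1 paired with NXT1 is the general export receptor of mRNA: the TREX complex loads it onto spliced and processed transcripts, and it carries them through the nuclear pore. NXF2, NXF3 and NXF7 are encoded on the X chromosome, share the fold of NXF1 and are known mainly from testis and brain, and mouse NXT2 is a close copy of NXT1. ZC3H4 works with WDR82 to stop transcription of noncoding RNA, ZC3H8 belongs to the little elongation complex that transcribes small nuclear RNA genes, and ZC3H6 is the least studied of the 3.

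The 9 genes lie on 4 chromosomes of GRCm38, and 2 short stretches of the X chromosome and chromosome 2 hold 5 of them. On X, all on the minus strand, lie *Nxf2* (chrX:134944526-134964754), *Nxf7* (chrX:135579555-135598777) and *Nxf3* (chrX:136072099-136085255), with 614.8 kb between *Nxf2* and *Nxf7* and 473.3 kb between *Nxf7* and *Nxf3*. *Nxt2* (chrX:142226770-142239692, plus strand) is 6141.5 kb further on. On chromosome 2, *Zc3h8* (chr2:128926268-128944077, minus strand) and *Zc3h6* (chr2:128967402-129018563, plus strand) point away from each other across 23.3 kb. *Nxt1* is at chr2:148672601-148676027, *Zc3h4* at chr7:16400910-16437696 and *Nxf1* at chr19:8757073-8772475, each on the plus strand.

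RefSeq start windows of GRCm38.p6 were found for 8 of the 9 genes, and *Nxf3* had none. The 3 windows shown differ in their number of CG dinucleotides, which are written in capitals. Each is the 250 bases before the first listed start, 5′ to 3′ on the strand of the gene, at chr2:128967152-128967401 on the plus strand for *Zc3h6* and at chrX:135598782-135599031 and chrX:134964755-134965004 on the minus strand for *Nxf7* and *Nxf2*. They are shown because *Zc3h6* fell, *Nxf7* rose and *Nxf2* stayed near the limit of detection.
Zc3h6: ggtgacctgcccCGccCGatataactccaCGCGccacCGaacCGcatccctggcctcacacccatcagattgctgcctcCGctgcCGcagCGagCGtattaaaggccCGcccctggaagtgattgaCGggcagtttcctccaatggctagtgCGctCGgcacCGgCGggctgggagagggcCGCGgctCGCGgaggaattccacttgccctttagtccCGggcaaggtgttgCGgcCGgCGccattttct
Nxf7: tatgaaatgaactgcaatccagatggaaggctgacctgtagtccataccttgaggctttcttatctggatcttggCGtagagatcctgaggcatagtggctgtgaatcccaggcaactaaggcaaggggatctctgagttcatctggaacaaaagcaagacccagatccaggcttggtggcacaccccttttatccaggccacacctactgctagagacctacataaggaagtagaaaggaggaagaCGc
Nxf2: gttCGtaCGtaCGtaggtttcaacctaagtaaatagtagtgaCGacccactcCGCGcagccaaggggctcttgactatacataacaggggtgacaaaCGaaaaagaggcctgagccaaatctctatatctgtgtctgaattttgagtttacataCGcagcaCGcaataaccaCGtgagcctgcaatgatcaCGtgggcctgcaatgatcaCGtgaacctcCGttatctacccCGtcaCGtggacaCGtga

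The *Zc3h6* window holds 24 CG and that of *Nxf2* 16, whereas that of *Nxf7* holds 2, against a median of 6 over 32851 RefSeq windows of the same length. Of all windows, 88.0% hold fewer CG than that of *Zc3h6* and 18.8% hold fewer than that of *Nxf7*. *Zc3h8*, the neighbour of *Zc3h6*, has 23 CG in its window. Among the other members, *Zc3h4* and *Nxf1*, which rose, have 26 and 30 at the first listed start, *Nxt2*, which fell, has 8, and *Nxt1* has 12. A second listed *Nxf2* window has 12 CG and 0 copies of CACGTG. The *Nxf2* window holds the palindrome CACGTG, which reads the same on both strands, 5 times without overlap, and 6.02% of all windows hold it at least once and 0.0152% hold it 5 or more times. The *Zc3h6* window lies within the span of *Gm10762*, a predicted protein-coding gene on the opposite strand. These are matches of letters and say nothing of a factor.

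Reads of the X-linked genes can be told apart by sequence. The coding sequences of *Nxf3* and *Nxf7* are identical at 68.5% of aligned bases, and the longest run they share is 19 bases, at coding positions 1263 to 1281 of *Nxf3* and 1476 to 1494 of *Nxf7*. It is shown as the longest exact match of the coding sequences, and it covers neither untranslated regions nor matches with mismatches.
Nxf3 and Nxf7: gatgctctgcttctctgtt

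Of the 50-base stretches of the longest *Nxf3* transcript, 0% occur in a transcript of another gene, and the same holds for *Nxf1*, *Nxf2*, *Zc3h4* and *Zc3h8*. For *Nxf7* the share was 3.07%, mostly in the pseudogene *Gm15019*. It was 5.15% for *Nxt1*, 1.53% for *Nxt2* and 9.60% for *Zc3h6*, where it came from exons shared with *Gm10762* and *Gm14027*. *Nxf2* and *Nxf7* are the closest pair of the 4 export factor genes, at 71.7% identity, and *Nxt1* and *Nxt2* are identical at 74.7% of aligned coding bases.

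The libraries held 18927748 to 24945216 counts in WT ASCs and 24320119 to 28333541 in *Bdh2*-knockout ASCs, at which depth 3 counts are 0.106 to 0.158 CPM (counts scaled to a common library size). *Bdh2*, the edited gene, had 203, 193 and 209 counts in WT and 164, 136 and 129 counts in knockout libraries. Its transcript was still at 57.7% of the WT level (log2 fold change -0.79 ± 0.12). The paper describes frameshift deletions near the start codon, with the mRNA lowered but present and the protein barely detectable. All 11 embryonic stem cell markers examined were expressed, with summed levels of 7425 to 7494 CPM in WT and 7606 to 7721 CPM in knockout libraries. The libraries differed in transcripts of liver cells. *Alb*, the albumin gene, relative to library totals, stood at 339, 201.1 and 22.3 CPM in WT and at 16.8, 86.5 and 8.55 CPM in knockout libraries. Of 16 hepatocyte markers, 11 were called lower in the knockout, as were 20.8% of all tested genes, and none was at 0 in every library. In bulk RNA, fewer cells of a type and less RNA per cell cannot be told apart.

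*Nxf3* (ENSMUSG00000057000), whose human product is a tissue-restricted export factor, was the export factor gene with the larger fall. It had 100, 121 and 115 counts in the WT libraries and 21, 17 and 12 counts in the knockout libraries. After scaling to CPM with TMM factors these are 5.15, 5.99 and 4.55 CPM against 0.761, 0.623 and 0.500 CPM. The groups stood far apart, and even the highest knockout library was below every WT library. The mean fell from 5.23 ± 0.724 to 0.628 ± 0.131 CPM (SD, n = 3 each), which is 12.0% of the WT level and 8.32-fold lower. The log2 fold change was -3.03 ± 0.22 (SE), the 6th lowest of 16758 tested genes.

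*Zc3h6* (ENSMUSG00000042851) had 117, 161 and 184 counts in WT and 39, 36 and 42 counts in knockout libraries. In TMM-scaled CPM it stood at 6.02, 7.97 and 7.27 in WT and at 1.41, 1.32 and 1.75 in the knockout, again with a wide gap between the groups. Its mean fell from 7.09 ± 0.987 to 1.49 ± 0.227 CPM (SD, n = 3 each), to 21.1% of the WT level or 4.74-fold lower. The log2 fold change was -2.25 ± 0.17 (SE), the 58th lowest. Both genes were chosen for these values. For reference, 3.23% of tested genes were called lower with a log2 fold change of -1 or less, and 2.05% were called higher with one of at least 1.

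The values are set beside the *Alb* levels because these differed between libraries. In WT ASC replicate 3 and knockout replicate 1, which had 22.3 and 16.8 CPM of *Alb*, *Nxf3* stood at 4.55 and 0.761 CPM and *Zc3h6* at 7.27 and 1.41 CPM. Without the 3 libraries above 50 CPM of *Alb* the log2 fold change was -2.83 for *Nxf3* and -2.21 for *Zc3h6*. That fit has 1 WT library, which is assumed to vary like the knockout libraries, and it uses values that chose these genes, so it is a description. The part of liver transcripts in the difference was not tested.

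**Figure D1:**
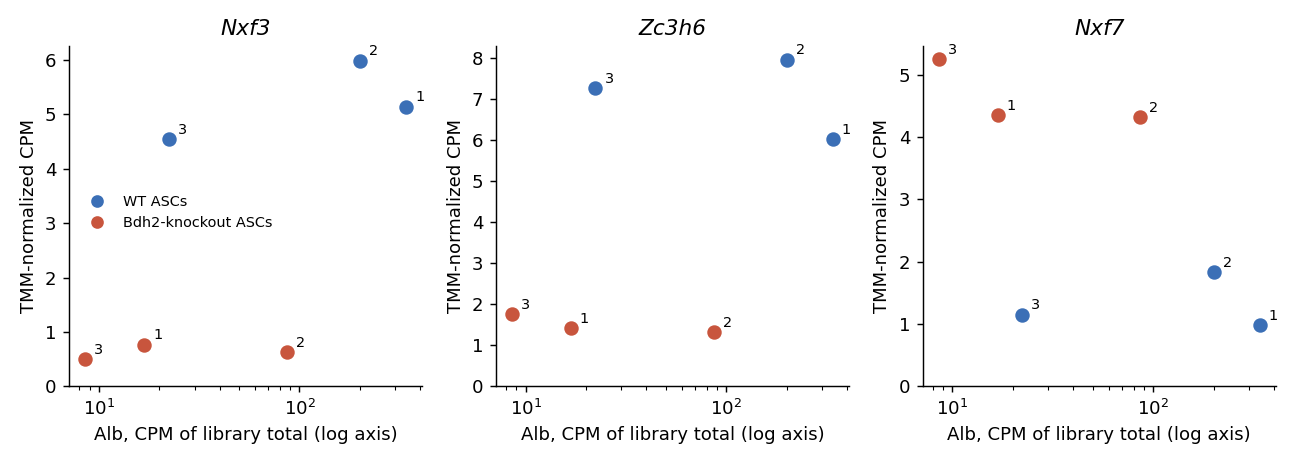
TMM-scaled CPM of *Nxf3*, *Zc3h6* and *Nxf7* (vertical axes, from 0) against *Alb* in CPM of the library total (horizontal log axis), 1 point per library, numbered by replicate, blue for WT and red for *Bdh2*-knockout ASCs. The 3 red points lie below the blue ones for *Nxf3* and *Zc3h6* and above them for *Nxf7*, and *Alb* runs from 22.3 to 339 CPM in the blue points and from 8.55 to 86.5 CPM in the red ones.

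*Nxf7* (ENSMUSG00000031410), another X-linked export factor gene, moved the other way. It had 19, 37 and 29 counts in WT and 120, 118 and 126 counts in knockout libraries, or 0.978, 1.83 and 1.15 CPM against 4.35, 4.32 and 5.25 CPM. Every knockout library was above every WT library. The mean rose from 1.32 ± 0.452 to 4.64 ± 0.529 CPM (SD, n = 3 each), 3.52-fold, with a log2 fold change of 1.82 ± 0.22 (SE). The rise passed the quasi-likelihood test of edgeR, Benjamini-Hochberg adjusted over all tested genes (adjusted p = 3.61e-05) and was the 70th largest. It kept its call under all 15 alternatives, with log2 fold changes of 1.66 to 2.11 and an edgeR, DESeq2 or limma adjusted p of at most 3.31e-04.

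*Nxf2* (ENSMUSG00000009941), the X-linked export factor gene best known from germ cells, was near the limit of detection. It had 12, 10 and 2 counts in WT and 11, 5 and 7 counts in knockout libraries, or 0.397 ± 0.282 and 0.291 ± 0.108 CPM (SD, n = 3 each), and the groups overlapped. It did not pass the filter on low counts and is given without a test.

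*Nxf3* and *Nxf7* changed places in level per length. In FPKM (CPM of the library total, without TMM factors, divided by the gene length in kilobases) *Nxf3* averaged 1.75 ± 0.246 in WT and 0.202 ± 0.0407 in knockout libraries, and *Nxf7* 0.496 ± 0.170 and 1.68 ± 0.201 (SD, n = 3 each). *Nxf3* made up 69.3% to 76.7% of the summed FPKM of the 3 genes in WT ASCs and 7.41% to 12.4% in knockout ASCs. *Nxf7* made up 15.8% to 23.9% and 79.9% to 87.5%. Since the fall of *Nxf3* chose it, its part in these shares is a description.

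**Figure D2:**
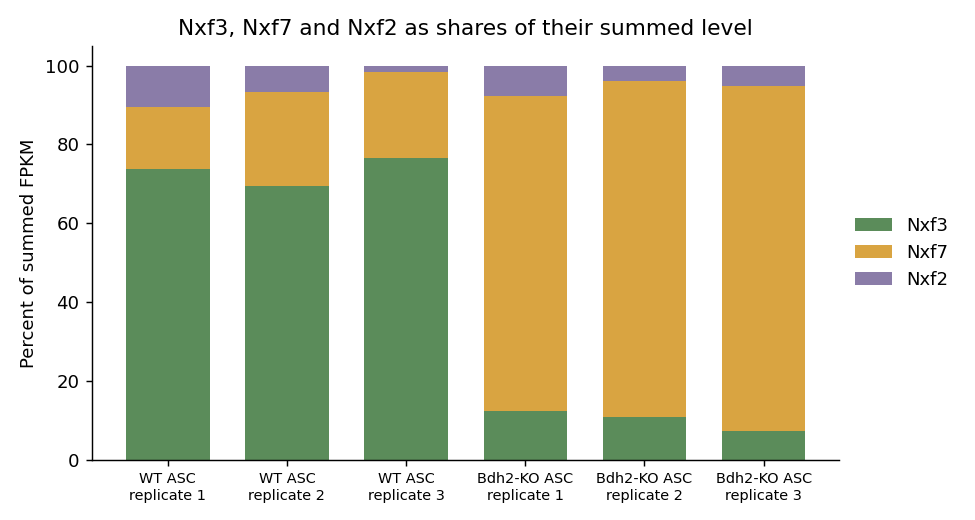
Stacked bars of the share of *Nxf3*, *Nxf7* and *Nxf2* in their summed FPKM (percent, vertical axis from 0 to 100), 1 bar per library. *Nxf3* fills 69.3% to 76.7% of the 3 WT bars, and *Nxf7* fills 79.9% to 87.5% of the 3 *Bdh2*-knockout bars.

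NXF2, NXF3 and NXF7 are known mainly from testis and brain, so germ cell and neuron markers are given beside them. Markers of other cell types the cultures could hold are given too. Among all tested genes 21.0% were called higher and 20.8% lower. Of 16 germ cell markers 6 were called higher and 1 lower, with summed levels of 116 to 131 CPM in WT and 133 to 153 CPM in knockout libraries. All 12 primitive endoderm markers were called higher, from a sum of 348 to 385 CPM in WT to 810 to 891 CPM in the knockout. None of either list was at 0 in every library. Fibroblast markers (2 of 6 tested lower) and neuron markers (2 of 7 tested higher) summed to 31.9 to 36.1 and 184 to 193 CPM in WT and to 23.9 to 29.2 and 266 to 283 CPM in the knockout. The part of these cell types in the results was not tested.

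*Nxf1* (ENSMUSG00000010097), the general export receptor, was expressed far above its X-linked relatives and differed little. It was counted 3183, 3028 and 3937 times in WT and 4667, 4738 and 4399 times in knockout libraries, or 164, 150 and 156 CPM against 169, 174 and 183 CPM. The groups did not overlap, though the WT and knockout libraries nearest to each other were close. The log2 fold change of 0.16 ± 0.05 (SE) passed the test (edgeR adjusted p = 0.0238), from 156 ± 7.0 to 175 ± 7.25 CPM (SD, n = 3 each). The call was lost without WT ASC replicate 2 (edgeR adjusted p = 0.0899), without knockout replicate 3 (0.103), with a hepatocyte covariate (0.0824, at the same log2 fold change of 0.16) and with library totals in place of TMM (log2 fold change 0.11, 0.130). In WT ASCs *Nxf1* made up 91.7% of the summed FPKM of the 4 export factor genes and in knockout ASCs 93.5%, with *Nxf3* at 6.02% and 0.662% and *Nxf7* at 1.72% and 5.45%.

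The 2 cofactor genes were both highly expressed, and *Nxt2* fell. *Nxt2* (ENSMUSG00000042271) was counted 669, 744 and 852 times in WT and 753, 675 and 633 times in knockout libraries, or 34.4, 36.8 and 33.7 CPM against 27.3, 24.7 and 26.4 CPM. All 3 knockout libraries were below all 3 WT libraries, and the mean fell from 35.0 ± 1.64 to 26.1 ± 1.30 CPM (SD, n = 3 each; log2 fold change -0.42 ± 0.06 SE, edgeR adjusted p = 1.72e-04).
*Nxt1* (ENSMUSG00000036992), the partner of NXF1, was counted 921, 850 and 1161 times in WT and 1115, 1086 and 1013 times in knockout libraries. At 47.4, 42.1 and 45.9 CPM against 40.4, 39.8 and 42.2 CPM the groups overlapped narrowly, with WT ASC replicate 2 the low WT library. The log2 fold change of -0.15 ± 0.06 (SE) did not pass (edgeR adjusted p = 0.0564). Without WT ASC replicate 2 it was -0.19 and passed (edgeR adjusted p = 0.0201), as it did with library totals (-0.20, 0.0130) and over genes with a mean count of at least 50 (-0.16, 0.0314). *Nxt1* made up 78.5% of the summed FPKM of the pair in WT and 81.6% in knockout ASCs.

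*Zc3h4* (ENSMUSG00000059273) rose while *Zc3h6* fell. Its counts were 1977, 2043 and 2937 in WT and 4224, 4304 and 3689 in knockout libraries, or 102, 101 and 116 CPM against 153, 158 and 154 CPM. The groups did not overlap, and the knockout libraries lay close together. The mean rose from 106 ± 8.49 to 155 ± 2.45 CPM (SD, n = 3 each; log2 fold change 0.54 ± 0.06 SE, edgeR adjusted p = 1.51e-05), and the log2 fold change stayed between 0.40 and 0.61 under the alternatives. *Gm45510*, an antisense gene inside *Zc3h4*, shares 1.69% of the exon bases of *Zc3h4* and was counted 8, 1 and 10 times in WT and 27, 25 and 20 times in knockout libraries. Whether the counting used strand is not given in the sources used here.

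*Zc3h8* (ENSMUSG00000027387), whose start lies 23.3 kb from that of *Zc3h6*, was counted 387, 449 and 487 times in WT and 637, 616 and 528 times in knockout libraries. At 19.9, 22.2 and 19.3 CPM against 23.1, 22.6 and 22.0 CPM the groups overlapped through WT ASC replicate 2. The log2 fold change of 0.14 ± 0.07 (SE) did not pass (edgeR adjusted p = 0.120). Without WT ASC replicate 2 it was 0.21 and passed (edgeR adjusted p = 0.0371). Of the summed FPKM of the 3 CCCH genes, *Zc3h6* made up 4.90% in WT and 0.849% in knockout ASCs, *Zc3h4* 45.6% and 54.5%, and *Zc3h8* 49.5% and 44.7%.

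Of the 7 relatives, 6 were tested, 3 of them rose and 1 fell. This is to be read against a background of 41.7% of all 16758 tested genes called, 21.0% higher and 20.8% lower. The same 4 relatives, *Nxf7*, *Nxf1*, *Zc3h4* and *Nxt2*, had groups that did not overlap, as had 52.4% of all tested genes, 26.3% with the knockout higher and 26.1% with it lower. With library totals 2 relatives were called higher and 2 lower, and over the alternatives 3 to 5 were called.

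In level per length, the order in WT ASCs was *Nxt1* (41.2 ± 2.62 FPKM), *Nxf1* (26.7 ± 1.31), *Zc3h8* (12.9 ± 0.991), *Zc3h4* (11.9 ± 0.885), *Nxt2* (11.2 ± 0.541), *Nxf3*, *Zc3h6* (1.28 ± 0.173), *Nxf7* and *Nxf2* (0.158 ± 0.113; SD, n = 3 each). Neighbours in that order did not overlap, except that *Zc3h8* overlapped *Zc3h4* and *Zc3h4* overlapped *Nxt2*. In knockout ASCs *Nxt1* (35.8 ± 1.29 FPKM), *Nxf1* (28.7 ± 1.37), *Zc3h4* (16.6 ± 0.301), *Zc3h8* (13.6 ± 0.238) and *Nxt2* (8.07 ± 0.384) stood highest. *Nxf7* came next, above *Zc3h6* (0.259 ± 0.0406 FPKM) and *Nxf3*, whose ranges overlapped, and *Nxf2* (0.111 ± 0.0406) was last. The order was the same in TPM and in FPKM with TMM library sizes.

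**Figure D3:**
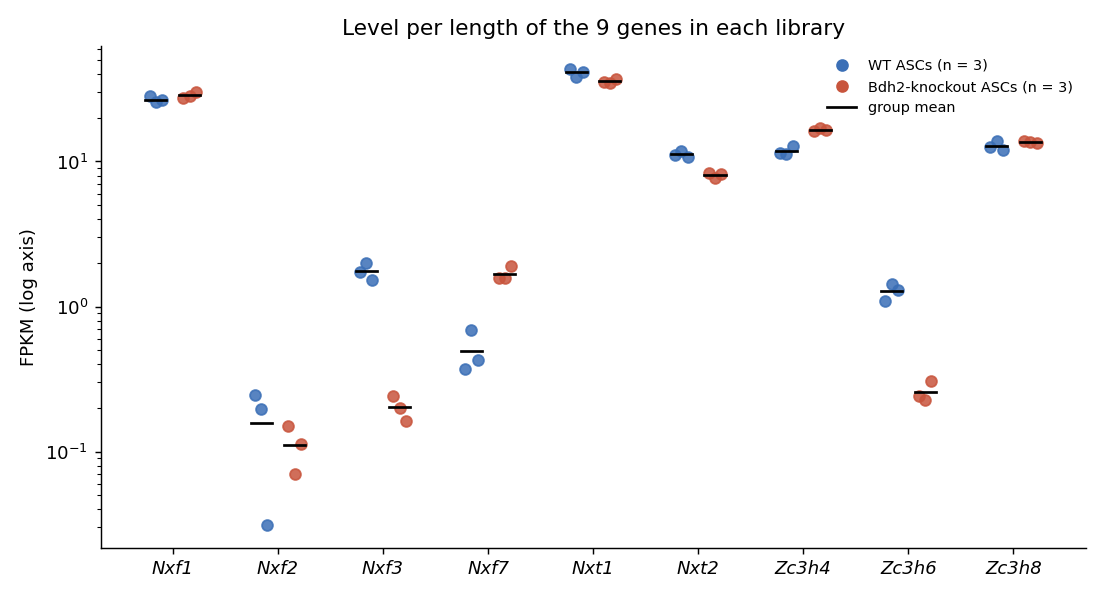
FPKM on a log axis for each of the 9 genes, 1 point per library, WT ASCs in blue and *Bdh2*-knockout ASCs in red (n = 3 each), with a black line at each group mean. *Nxf3* and *Zc3h6* drop from 1.75 and 1.28 FPKM to 0.202 and 0.259 FPKM, *Nxf7* climbs from 0.496 to 1.68 FPKM, and *Nxf1*, *Nxt1* and *Zc3h8* have means of at least 12.9 FPKM in both groups.

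The genes beside *Nxf3* and *Zc3h6* showed no fall of this size. For each, the 5 nearest tested genes on either side were examined, 19 in all without *Zc3h8*, and their log2 fold changes ran from -0.53 to 0.95 with a median of 0.14. Among them 9 were called higher and 1 lower, where 41.7% of all tested genes were called. Without knockout replicate 1, knockout replicate 3 or WT ASC replicate 1, and without the libraries high in *Alb*, 6 of the 19 were called, 5 higher and 1 lower. With library totals 4 were called higher and 2 lower, and with the hepatocyte covariate 3 and 1.

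Around *Nxf3* lie the *Bex* and *Tceal* genes, small X-linked genes expressed widely in brain. *Bex2*, 3.86 kb away, stood at 35.2 ± 2.83 CPM in WT and 41.2 ± 2.27 CPM in knockout ASCs (SD, n = 3 each; log2 fold change 0.23 ± 0.07 SE, edgeR adjusted p = 0.0156). *Arxes1*, *Arxes2*, *Tceal8* and *Bex1* were also called higher, by log2 fold changes of 0.33, 0.31, 0.19 and 0.14. *Bhlhb9* (-0.05), *Gprasp2* (-0.15), *Bex4* (0.11), *Tceal5* (-0.46) and *Tceal7* (0.95) did not pass, and the last 2 had under 3 CPM in every group. With 1 library left out *Tceal5* ran from -0.61 to -0.17 and *Tceal7* from 0.49 to 1.80, the highest without WT ASC replicate 2. *Tceal7* passed the filter on low counts only through the knockout libraries, so calls it gained in filtered fits are left out. It stood at 2.68 without the libraries high in *Alb*, which leaves 1 WT library, and at 0.96 with no filter (edgeR adjusted p = 0.048). *Gprasp2* was called lower with library totals (-0.21, edgeR adjusted p = 0.0295). Each of the 5 calls was lost when 1 library or another was left out: that of *Bex2* without WT ASC replicate 1 or knockout replicate 1, that of *Arxes1* without knockout replicate 1, those of *Arxes2* and *Tceal8* without WT ASC replicate 3 or knockout replicate 3 (*Tceal8* also without knockout replicate 1), and that of *Bex1* when any library other than WT ASC replicate 3 was left out. Those of *Bex1*, *Bex2* and *Arxes1* were also lost with the hepatocyte covariate, as was that of *Arxes2*, at log2 fold changes of 0.12, 0.18, 0.30 and 0.32. Those of *Bex1*, *Bex2* and *Arxes1* were lost without the libraries high in *Alb*, where *Bex2* stood at 0.096 (edgeR adjusted p = 0.36). With library totals those of *Arxes2*, *Tceal8* and *Bex1* were lost, and that of *Arxes2* with DESeq2.

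Beside *Zc3h6*, *Tmem87b*, which encodes a Golgi membrane protein, fell from 37.4 ± 1.75 to 25.9 ± 1.32 CPM (SD, n = 3 each; log2 fold change -0.53 ± 0.06 SE, edgeR adjusted p = 2.8e-05). *Polr1b*, a subunit of RNA polymerase I, and *Slc20a1*, a phosphate transporter, rose by log2 fold changes of 0.33 and 0.36. *Anapc1*, of the anaphase-promoting complex, rose by 0.17, a call lost without WT ASC replicate 1, with the hepatocyte covariate, without the libraries high in *Alb* and with library totals, and the predicted gene *Gm4430* rose by 0.52 at an edgeR adjusted p of 0.0486 that was lost in 10 of 15 alternatives, 5 of which left out 1 library. *Mertk* (-0.19), *Ttl* (0.10) and *Chchd5* (-0.10) did not pass, though *Ttl* was called without WT ASC replicate 3 (0.23, edgeR adjusted p = 0.045). *Gm10762*, which overlaps the start of *Zc3h6* on the other strand, had 37, 46 and 39 counts in WT and 40, 72 and 41 counts in knockout libraries (log2 fold change 0.03 ± 0.26 SE). *Gm14027*, which shares exon bases with the end of *Zc3h6* on the same strand, had 2, 15 and 8 counts in WT and 0, 2 and 2 in knockout libraries and was not tested.

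**Figure D4:**
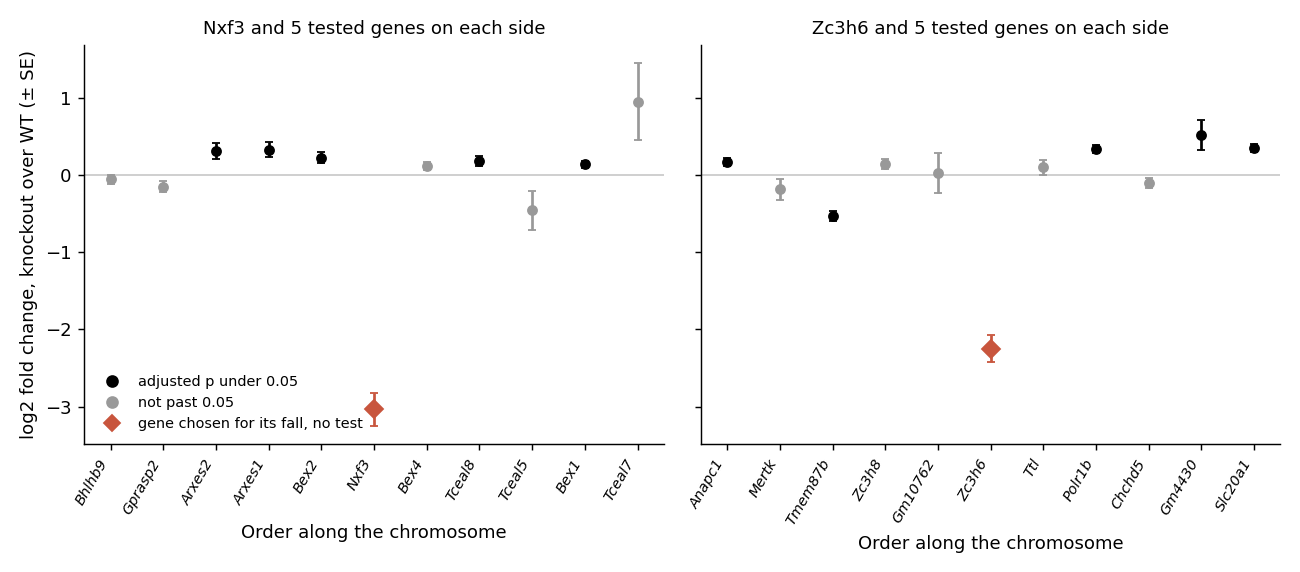
Log2 fold change (vertical axis, knockout over WT, ± SE) of *Nxf3* and *Zc3h6* (red diamonds, no test) and of the 5 nearest tested genes on each side in chromosomal order, black where the edgeR adjusted p was under 0.05 and grey where it was not. *Nxf3* and *Zc3h6*, at -3.03 and -2.25, lie below every neighbour, the lowest of which is *Tmem87b* at -0.53.

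Over all genes compared, the patterns most like that of *Nxf3* were found by the root mean square difference of centred log2 CPM over the 6 libraries, among 14332 genes with a mean of at least 1 CPM. They were *Gm21887* (0.210, Pearson's r 0.992), *Hist1h1d* (0.271, 0.998), *Gm43980* (0.320, 0.981), *Inhbe* (0.370, 0.974) and *Gm12245* (0.387, 0.968). *Gm21887* also lies on the X chromosome and stood at 5.29 ± 0.620 CPM in WT and 0.788 ± 0.224 CPM in knockout ASCs, *Hist1h1d* encodes a linker histone, and *Inhbe* an activin subunit known from liver.

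For *Zc3h6* the most alike were *Igf2* (0.122, r 0.994), *Neat1* (0.168, 0.990), *Calb2* (0.214, 0.982), *Gjb2* (0.221, 0.984) and *Baiap2l1* (0.247, 0.975). *Igf2*, an imprinted growth factor gene, fell from 13.6 ± 3.03 to 3.04 ± 0.314 CPM, and *Neat1*, the long noncoding RNA that builds paraspeckles, from 113 ± 12.4 to 27.2 ± 2.14 CPM (SD, n = 3 each). All 10 genes fell between the groups, which their choice by likeness fixes, and the values are a description over 6 libraries that share that division.

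In the wider export machinery most differences were small. Over all 16758 tested genes the median log2 fold change was -0.01. TREX is the complex that couples transcription to export, and of 28 tested genes of TREX and the export adaptors 12 rose and 1 fell (42.9% and 3.57%, against 21.0% and 20.8% of all tested genes; median 0.12). The related RNA helicase genes of the complex rose: *Ddx39* from 219 ± 13.2 to 314 ± 7.97 CPM (log2 fold change 0.52, edgeR adjusted p = 9.85e-06) and *Ddx39b* from 317 ± 10.2 to 419 ± 15.7 CPM (0.40, 3.77e-05; SD, n = 3 each). *Thoc3*, a core subunit, rose by 0.39, and *Sem1*, of the TREX-2 complex, was the 1 gene that fell (-0.22, edgeR adjusted p = 0.0203). The call of *Sem1* was lost without WT ASC replicate 2 or knockout replicate 2 or 3 and without the libraries high in *Alb*. The count depended on the libraries and the scaling: 7 genes were called without knockout replicate 2, 8 without WT ASC replicate 2, and with library totals 7 rose and 5 fell.

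Of 33 tested genes from most parts of the nuclear pore, with the mRNA export factors at its face, 15 rose and 4 fell (45.5% and 12.1%, against 21.0% and 20.8% of all tested genes, median 0.13). *Aaas*, which encodes the nucleoporin ALADIN, rose from 121 ± 8.16 to 178 ± 6.12 CPM (log2 fold change 0.56, edgeR adjusted p = 9.15e-06), and *Nup214*, a docking site of export receptors, from 109 ± 9.16 to 155 ± 6.50 CPM (0.50, 4.76e-05; SD, n = 3 each). *Pom121*, a membrane nucleoporin, rose by 0.38. *Nup210*, another of these, fell from 131 ± 4.01 to 105 ± 2.08 CPM (-0.33, edgeR adjusted p = 2.03e-04). *Nup43* (-0.25) and the helicase gene *Ddx19b* (-0.19) also fell. *Nup43* was not called without the libraries high in *Alb*, nor *Ddx19b* without knockout replicate 2 or 3. With library totals 10 rose and 7 fell, and without the libraries high in *Alb* 10 and 2.

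The RanGTP system moves proteins and some RNAs through the pore by a separate route, and 10 of its 16 tested genes rose and 0 fell, or 62.5% and 0%, where 21.0% and 20.8% of all tested genes did. The median was 0.20, with library totals 9 rose and 1 fell, and the 15 alternatives called 9 to 12. *Ipo13*, an importin, rose from 36.0 ± 2.38 to 52.7 ± 1.51 CPM (log2 fold change 0.55, edgeR adjusted p = 1.26e-05). *Ranbp1* and *Rcc1*, which set the state of Ran, rose by 0.44 and 0.36. In the cap binding and exon junction complexes, which mark a processed mRNA, 12 of 21 tested genes rose and 1 fell, or 57.1% and 4.76% beside the same 21.0% and 20.8% (median 0.17). With library totals 7 rose and 3 fell, and with the hepatocyte covariate 8 and 0. *Srrt*, the ARS2 partner of the cap complex, rose from 224 ± 13.0 to 367 ± 16.9 CPM (0.71, edgeR adjusted p = 1.00e-06), and *Ncbp2*, the cap binding subunit, from 86.8 ± 4.04 to 122 ± 0.878 CPM (0.49, 1.19e-05; SD, n = 3 each). *Eif4a3*, the helicase of the exon junction complex, rose by 0.39. *Upf2*, the 1 that fell (-0.16, edgeR adjusted p = 0.0377), lost its call in 9 of 15 alternatives, among them each left-out library but WT ASC replicate 3.

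Among 35 tested genes around ZC3H4 and ZC3H8, the factors of noncoding transcription and of snRNA genes, 15 rose and 5 fell, or 42.9% and 14.3% where 21.0% and 20.8% of all tested genes did (median 0.11, and 14 and 6 with library totals). *Setd1b*, a histone methyltransferase whose complex holds WDR82, rose from 43.1 ± 3.11 to 87.7 ± 7.49 CPM (log2 fold change 1.02, edgeR adjusted p = 4.00e-07), and *Ppp1r10*, a subunit of a WDR82 phosphatase complex, from 71.5 ± 4.52 to 125 ± 6.62 CPM (0.80, 8.16e-07; SD, n = 3 each). *Ints6*, of the Integrator complex, rose by 0.53. *Ice2*, a core subunit of the little elongation complex to which ZC3H8 belongs, fell from 32.1 ± 1.69 to 21.2 ± 1.94 CPM (-0.60, edgeR adjusted p = 4.73e-05). *Snapc1* (-0.44) and *Snapc3* (-0.24), of the complex that binds snRNA promoters, fell too. The call of *Snapc1* was lost without knockout replicate 2, and both were lost without the libraries high in *Alb*.

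The nuclear exosome degrades RNA that is not exported, and of its 24 tested genes 6 rose and 5 fell, or 25.0% and 20.8%, close to the 21.0% and 20.8% of all tested genes. The median was 0.05, and with library totals 5 rose and 8 fell with a median of -0.01. *Exosc10*, its nuclear nuclease, rose from 103 ± 1.38 to 136 ± 3.66 CPM (log2 fold change 0.40, edgeR adjusted p = 3.39e-05) and *Rbm27* rose by 0.31. *Zfc3h1*, which holds poly(A) RNA back in the nucleus, fell from 64.6 ± 2.52 to 48.6 ± 1.11 CPM (-0.41, 5.10e-05; SD, n = 3 each), as did *Zcchc7* (-0.39), of the polyadenylating cofactor TRAMP. The subunit genes *Exosc4* (0.30) and *Exosc8* (-0.20) were called too, but the first was not called without WT ASC replicate 1 or 2 and the other not without WT ASC replicate 1 or knockout replicate 1. Both were also lost with the hepatocyte covariate and without the libraries high in *Alb*, where they stood at 0.037 (edgeR adjusted p = 0.75) and -0.096 (0.26). Without WT ASC replicate 1, without the libraries high in *Alb* and with the hepatocyte covariate, 7 of the 24 were called each time. Of 14 tested CCCH genes named *Zc3h*, *Zc3h4* and *Zc3h8* included, 4 rose and 3 fell, or 28.6% and 21.4%, also near the share of all tested genes (median 0.09, and 4 and 4 with library totals). *Zc3h12a*, an RNA endonuclease gene, rose from 10.6 ± 0.392 to 17.3 ± 1.63 CPM (0.71, edgeR adjusted p = 4.76e-05) and *Zc3h12c* rose by 0.52. *Zc3h14*, a poly(A) binding protein gene, fell by 0.27 on the log2 scale, while *Zc3h12b* (-0.54) and *Zc3h10* (-0.20) were called lower and lost their calls when WT ASC replicate 1, knockout replicate 1 or knockout replicate 3 was left out, *Zc3h10* also without WT ASC replicate 3, and both with the hepatocyte covariate (-0.45 and -0.22). *Zc3h12b* was not called with DESeq2 (-0.54) or with no filter on low counts (-0.53) either, and it stood at -0.57 without the libraries high in *Alb*.

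**Figure D5:**
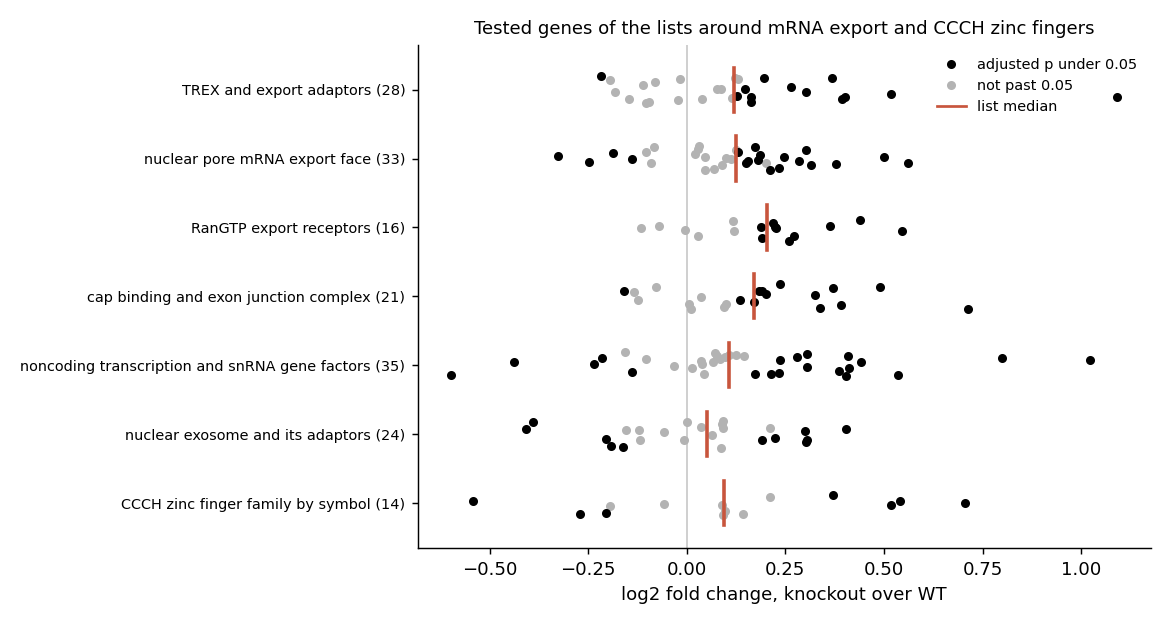
Log2 fold change (horizontal axis, knockout over WT) of every tested gene of 7 lists around mRNA export and CCCH zinc fingers, with the number tested in brackets, black where the edgeR adjusted p was under 0.05, grey where it was not, and a red line at the median of each list. The list labelled nuclear pore mRNA export face holds genes from most parts of the pore. The medians lie between 0.05 and 0.20, and no gene shown reaches the -2.25 of *Zc3h6* or the -3.03 of *Nxf3*.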

How the data were processed

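RNA of 3 WT and 3 *Bdh2*-knockout ASC libraries was sequenced. The authors mapped reads to GRCm38 with HISAT2 2.0.5, counted them on genes with FeatureCounts and deposited raw counts for 54715 genes without normalization. The annotation release, the strand setting and the treatment of reads with several matches are not given in the sources used here. GENCODE M21 holds 99.6% of the identifiers, 98.3% of these at the same start and end.

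Counts were tested in R 4.3.3 with edgeR 4.0.16 (TMM, filterByExpr, glmQLFit and glmQLFTest, genotype only, Benjamini-Hochberg over 16758 genes, threshold 0.05). The test was checked on simulated counts. CPM, FPKM and TPM were derived from these counts and the gene lengths in the table. The alternatives were DESeq2 1.42.0, limma 3.58.1 (voom), median-of-ratios factors, library totals, no filter, a mean count of at least 50, a covariate for hepatocyte markers, libraries above 50 CPM of *Alb* left out, the replicate block and each library left out. DESeq2 and voom used the filtered genes. The level of 3 counts covers counting error only.

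The named genes are the members, *Bdh2*, the neighbours of *Nxf3* and *Zc3h6*, the 3 largest increases and decreases per list (adjusted p under 0.05, mean normalized count of at least 50) and the 5 most alike genes of each. *Alyref2*, *Armcx5*, *Gm15019*, *Gm14027* and *Gm45510* were named after their values were seen. The members and lists were chosen with earlier results of these data known. Figures were made with matplotlib 3.10.9.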

Additional observations from a re-analysis of the deposited data

How the results depend on the processing

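Each count was recomputed under 15 alternatives. The number of relatives called stayed between 3 and 5, and *Nxf7*, *Nxt2* and *Zc3h4* kept their calls in all. The counts that moved by over 1.5 times were as follows. The cap binding and exon junction list (13) moved to 8 with the hepatocyte covariate. TREX and the adaptors (13) moved to 7 without knockout replicate 2 and to 8 without WT ASC replicate 2. The exosome list (11) moved to 7 with the covariate and to 7 without WT ASC replicate 1. The neighbours (10) moved to 4 with the covariate and to 6 with library totals. They also moved to 6 without WT ASC replicate 1, knockout replicate 1 or knockout replicate 3. Without the libraries above 50 CPM of *Alb*, which leaves 1 WT library, the nuclear pore, exosome and neighbour counts moved. Leaving out 1 library gave 7 to 17 calls for TREX and the adaptors, 7 to 16 for the exosome and 6 to 9 for the neighbours. The cause was not tested.

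Among genes not called with all libraries, the log2 fold change of *Gm10762* turned from 0.03 to -0.028 with library totals and ran from -0.26 to 0.22 when 1 library was left out (below 0 without knockout replicate 2 or WT ASC replicate 3, -0.11). That of *Ttl* turned from 0.10 to -0.013 with the covariate and to -0.12 without the *Alb*-high libraries, and ran from -0.0067 (without WT ASC replicate 1) to 0.23 (without WT ASC replicate 3, where it was called) when 1 library was left out.

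Replicate numbers did not pair the samples: deviations from the group means correlated at -0.15, 0.10 and 0.24 between libraries of equal number, and WT ASC replicate 1 correlated best with knockout replicate 2 (0.31). With the replicate block, 6452 genes were called in place of 6996 and 4 relatives in place of 4. Among the genes named by the rule the block ended the calls of *Upf2* (edgeR adjusted p = 0.0503) and *Bex1* (0.0720) and no other. Library totals moved the median of all genes by -0.06 and the split of calls from 3518 higher and 3478 lower to 2734 and 4440. Depth limits *Nxf2*, at 2 to 12 counts.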

Other observations

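Between *Nxf2* and *Nxf3* the table lists 38 genes apart from the ends and *Nxf7*, a stretch examined after its values were seen. Of these, 8 were tested, 4 were called higher and 0 lower by edgeR. Of the 588 tested X-linked genes 120 were called higher and 119 lower, 40.6% in either direction, with a median log2 fold change of -0.01. Besides *Bex2*, *Arxes1* and *Arxes2* the genes called higher included *Armcx5* (log2 fold change 0.24, edgeR adjusted p = 0.0494). As given above, the calls of *Bex2*, *Arxes1* and *Arxes2* were lost when single libraries were left out, and that of *Armcx5* was not followed through the alternatives. *Gm15019*, the pseudogene that shares stretches with *Nxf7*, had 6, 5 and 16 counts in WT and 20, 13 and 14 counts in knockout libraries, and its log2 fold change of 0.53 ± 0.41 (SE) did not pass (edgeR adjusted p = 0.315).

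*Alyref2*, a retrogene copy of the export adaptor gene *Alyref*, had the largest log2 fold change of the TREX list, 1.09 ± 0.40 (SE). It had only 7, 5 and 7 counts in WT and 23, 16 and 11 counts in knockout libraries. It passed the filter on low counts only through the knockout libraries, so these values are a description and its p-value is left out. It is counted among the TREX genes that rose.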
